A study of Homo sapiens with 15 samples.

Results

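CDK1, CDK2, CDC25A, CDC25B, CDC25C, WEE1 and PKMYT1 are the kinases and phosphatases that set the activity of cyclin-dependent kinase at the entry into S phase and into mitosis. They were taken by gene name from the deposited count tables, where all 7 were found among 19531 names, and their 18 regions near transcript ends were summed by name. All 7 had enough reads to be tested, both in all reads and in reads with T-to-C conversions. The cells were U2OS, an osteosarcoma line. The libraries were made by SLAM-seq, in which 4-thiouridine taken up into new RNA is alkylated and then read as C in place of T.

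The 15 libraries formed 5 groups of 3, G1, Early_S, Late_S, G2 and No_alk. Cells of the 4 phases had been growing without synchronisation, as the treatment protocol describes, although the series title calls them synchronised. They received 4-thiouridine and EdU together for 45 minutes, were fixed with glyoxal and methanol, and were sorted by EdU signal and DNA content, so the G2 gate can also hold mitotic cells. The labels carry the same protocols for the No_alk libraries, read here as those without the alkylation step, and do not say which gate their cells came from. Each library used 500 ng of RNA and a kit that sequences the 3' end of polyadenylated RNA. A read thus marks a transcript end, and levels are not compared between genes. Reads had no molecular identifiers, so copies of the same molecule are not told apart. The labels do not say whether replicates came from separate cultures, so p-values measure only the spread between these libraries.

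CDK1 is the kinase that drives mitosis when bound to cyclin A or B, and CDK2 acts with cyclin E or A in S phase. WEE1 and PKMYT1 hold CDK1 back by phosphorylating residues of its ATP-binding loop, and the CDC25 phosphatases remove those phosphates. Active CDK1 in turn activates CDC25 and restrains WEE1, which makes the entry into mitosis switch-like. Much of that control acts on the proteins, and the present data bear on the transcripts alone.

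RefSeq start regions on GRCh38.p14, each from 250 bases before to 50 bases after a transcript start, were held for 4 of the 7 genes, in 11 entries; CDK2, WEE1 and PKMYT1 were not matched. The entries below are shown because CDK1 and CDC25C rose together from G1 to G2 and CDC25A fell. They read 5' to 3' on the gene's strand, with the letters of searched motifs on either strand in capitals. The searched letters were TTTGAA or else TTTAAA for the cell cycle homology region (CHR), CCAAT for the NF-Y box, and TTGGCGC or else TTCCCGC or else TTCGCGC or else TTGCCGC for an E2F box. Overlapping matches were each counted.
CDK1 (chr10:60778228-60778527, plus strand): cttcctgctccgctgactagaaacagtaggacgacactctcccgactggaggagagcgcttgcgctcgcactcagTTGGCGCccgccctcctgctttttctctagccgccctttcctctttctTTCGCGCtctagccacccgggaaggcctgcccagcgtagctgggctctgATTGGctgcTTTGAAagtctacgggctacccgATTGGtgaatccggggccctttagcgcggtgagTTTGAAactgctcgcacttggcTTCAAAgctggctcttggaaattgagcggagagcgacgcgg
CDC25C (chr5:138331828-138332127, minus strand): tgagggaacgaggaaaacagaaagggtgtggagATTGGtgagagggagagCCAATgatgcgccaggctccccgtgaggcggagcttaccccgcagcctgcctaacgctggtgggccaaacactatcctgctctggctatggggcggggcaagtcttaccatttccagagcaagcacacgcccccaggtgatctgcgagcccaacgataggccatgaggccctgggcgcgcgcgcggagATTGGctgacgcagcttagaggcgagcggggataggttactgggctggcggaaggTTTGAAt
CDC25A (chr3:48188368-48188667, minus strand): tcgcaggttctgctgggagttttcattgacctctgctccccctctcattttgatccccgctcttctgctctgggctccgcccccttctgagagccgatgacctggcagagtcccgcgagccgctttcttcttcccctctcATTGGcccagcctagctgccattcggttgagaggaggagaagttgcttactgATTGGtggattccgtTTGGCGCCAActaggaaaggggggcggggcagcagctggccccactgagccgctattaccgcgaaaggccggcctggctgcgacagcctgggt

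Of all 35116 RefSeq start regions, 24% held CHR letters, 34.6% CCAAT and 13.0% an E2F box. These regions were not picked for their matches, as the printed ones of CDK1 and CDC25C were. The printed CDK1 region held 3 CHR matches, whose first bases lay at -69, -13 and 9 from the start, with CCAAT matches at -78 and -46 and E2F matches at -175 and -127. The other CDK1 entry (chr10:60778081-60778380) held CHR matches at -161 and -131, a CCAAT match at -150 and E2F matches at -28 and 20. This window overlaps the printed one, and its E2F matches are the same bases as those at -175 and -127 there. The printed CDC25C region held a CHR match at 43 and CCAAT matches at -217, -200 and -12, with no E2F match. Of the other 3 CDC25C entries, 1 held a CHR match at -30 and a CCAAT match at -85, and 2 held an E2F match, at -170 and -184, with no CHR or CCAAT match. The first of these overlaps the printed window, and its matches are the same bases as those at 43 and -12 there. The E2F matches at -170 and -184 are 1 site seen in 2 overlapping windows. The CDC25A region held no CHR match, CCAAT matches at -110 and -58, and 2 E2F matches at -43 and -40 that overlap on opposite strands. Of the 4 CDC25B entries, 1 held a pair of E2F matches (chr20:3786701-3787000), 2 a CCAAT match and 1 a CHR match. A match of letters is a description of the window and does not show binding.

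Total reads were 16096695 to 21803972 per library. T>C reads, those carrying conversions, numbered 1812606 to 4037464 in the alkylated libraries and 175212 to 182253 in No_alk. Their share of reads was 22.3% ± 0.740 (SD, n = 3) for G1 and 18.4% ± 0.516 for Early_S. For Late_S it was 10.0% ± 0.0870, for G2 10.1% ± 0.336 and for No_alk 1.01% ± 0.0179. Single libraries held 109 to 7218 reads of a member, and at most 2.62% of these were multimapped. The 8 mesenchymal markers summed to 5666.6 to 6752.4 CPM (counts scaled by library size) in the 4 phases; COL1A2, with a mean of 0.143 over all 15 libraries, was the only one below 1. The epithelial list summed to 21.1 to 44.6 and the blood list to 0.817 to 3.94, with CD3E and LYZ at 0. The 6 genes of the G2 list went from 361.3 to 369.2 CPM in G1 to 1282 to 1351 in G2, and those of the G1 and S list from 722.1 to 762.3 to 461.8 to 520.4. In bulk RNA of a gate, fewer cells with a transcript and less of it per cell cannot be told apart.

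Levels from all reads, called steady-state here, were tested by edgeR's quasi-likelihood test with Benjamini-Hochberg adjustment over 13755 genes. A gene is called at an adjusted p under 0.05. Across the 4 phases, 6 of the 7 genes were called, against 34.1% of all genes tested, and PKMYT1 was not. Between G1 and Early_S 6 were called (24.3% of all genes), of which 4 rose (12.5%) and 2 fell (11.8%). Between Early_S and Late_S 2 were called (11.2%), between G1 and Late_S 4 (19.9%), and between Early_S and G2 5 (19.3%). Between G1 and G2 4 were called (21.1%), of which 3 were higher in G2 (11.1%) and 1 lower (10.0%). Between Late_S and G2, edgeR called 0 of the 7 (0.145% of all genes) and DESeq2 0; the unadjusted threshold was passed there by 1, WEE1.

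**Figure D1:**
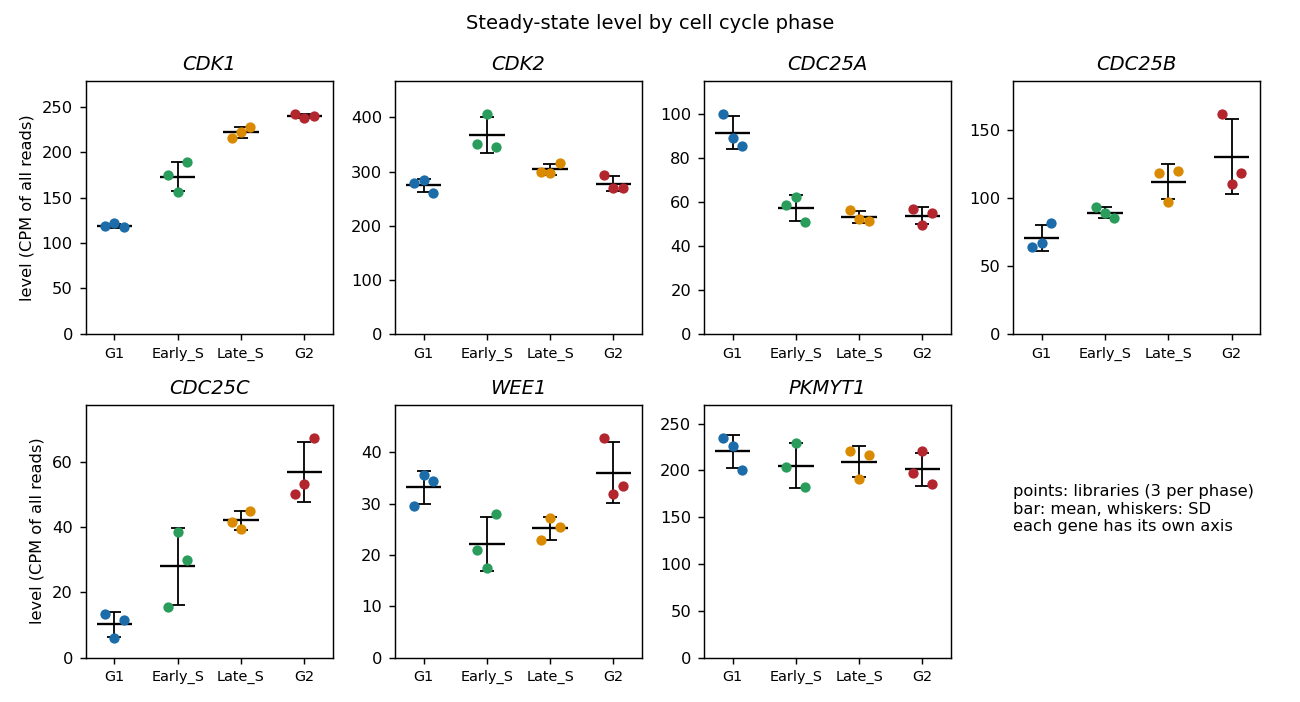
Steady-state level of each gene in CPM of all reads, with 1 panel and 1 axis per gene, points for the 12 alkylated libraries, a bar for the mean and whiskers for the SD of 3. CDK1, CDC25B and CDC25C have their highest mean in G2 and their lowest in G1, CDC25A is highest in G1, CDK2 in Early_S, and PKMYT1 overlaps between all phases.

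CDK1 rose in every step from G1 to Late_S. Its reads lay for 98% in chr10:60793877-60794852 (hg38), which ends at the RefSeq end of the gene. The steady-state level was 118.2, 121.4 and 117.1 CPM in G1 and 174.6, 156.0 and 188.8 in Early_S. It was 215.1, 222.3 and 227.2 in Late_S and 241.8, 238.0 and 239.1 in G2. The 4 phases did not overlap. The rise was 0.54 ± 0.09 (log2 ± SE) into Early_S (adjusted p = 8.9e-06, edgeR) and a further 0.36 ± 0.09 into Late_S (adjusted p = 0.0049), while G2 and Late_S, the neighbours at the top, were 0.11 ± 0.09 apart (adjusted p = 0.77). From G1 to G2 the mean went from 118.9 ± 2.26 to 239.6 ± 1.98 (SD, n = 3; adjusted p = 4.5e-12).

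CDK2 had its highest level in Early_S and about the same level in G1 and G2. Its reads lay for 99.7% in chr12:55971521-55972784, within the last bases of the gene. Its level was 278.3, 284.4 and 260.1 CPM in G1, 351.8, 406.3 and 345.9 in Early_S, 299.3, 297.2 and 315.0 in Late_S and 293.3, 269.6 and 270.3 in G2. All Early_S libraries were above all others, and G1 overlapped with G2. Early_S exceeded G1 by 0.42 ± 0.08 (log2; edgeR adjusted p = 7.1e-05) and G2 fell by 0.41 ± 0.08 from Early_S (adjusted p = 0.00019), while G1 minus G2 was -0.02 ± 0.08 (adjusted p = 0.91). The fall into Late_S, -0.28 ± 0.08 (adjusted p = 0.017), was not called without Late_S replicate 1 (adjusted p = 0.0707), Late_S replicate 2 (adjusted p = 0.0674) or Early_S replicate 2 (adjusted p = 0.149).

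CDC25A, the phosphatase best known for acting on CDK2 at the start of S phase, fell after G1 and stayed at that lower level. All of its reads lay in chr3:48157146-48158944 on the minus strand. Its level was 100.1, 89.3 and 85.6 CPM in G1, 58.7, 62.4 and 50.8 in Early_S, 56.6, 52.1 and 51.3 in Late_S and 57.0, 49.4 and 55.2 in G2. The G1 libraries lay above all others, and the other 3 phases overlapped. Early_S was lower than G1 by -0.68 ± 0.13 (log2; edgeR adjusted p = 0.00011), and Late_S differed from Early_S by -0.10 ± 0.13 (adjusted p = 0.71) and G2 from Late_S by 0.02 ± 0.13 (adjusted p = 0.99). G1 exceeded G2 by 0.77 ± 0.13 (adjusted p = 1.8e-05).

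CDC25B, which is known for starting CDK1 activation at the centrosome, was higher in Late_S and G2 than in G1. All of its reads lay in chr20:3804962-3806121. Its level was 63.9, 66.7 and 81.4 CPM in G1, 93.5, 89.0 and 85.2 in Early_S, 118.4, 97.2 and 120.3 in Late_S and 161.9, 110.3 and 118.9 in G2. G1, Early_S and Late_S did not overlap, and Late_S overlapped with G2, where replicate 1 stood above the other libraries. G2 exceeded G1 by 0.88 (G1 minus G2 -0.88 ± 0.13, edgeR adjusted p = 8.0e-07) and Early_S by 0.55 ± 0.13 (adjusted p = 0.0014). The first step, 0.34 ± 0.13 into Early_S (adjusted p = 0.047), was lost without any 1 of 7 libraries, namely G1 replicates 1 and 2, all 3 of Early_S, and Late_S replicates 1 and 3 (adjusted p up to 0.197). It was also lost with other size factors (adjusted p = 0.0574), with library totals (adjusted p = 0.0810), under DESeq2 (adjusted p = 0.0784) and with the most-read region of each gene (adjusted p = 0.0524).

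CDC25C, which acts on CDK1 at mitotic entry, had the widest span of the 7 between phases. All of its reads lay in chr5:138285265-138285691 on the minus strand. Its level was 13.4, 6.0 and 11.4 CPM in G1, 15.4, 38.4 and 29.9 in Early_S, 41.5, 39.5 and 45.0 in Late_S and 50.1, 53.2 and 67.3 in G2. The 4 phases did not overlap, although Early_S replicate 1 lay close to the G1 libraries. The mean went from 10.2 ± 3.83 CPM in G1 to 56.9 ± 9.17 in G2 (SD, n = 3; G1 minus G2 -2.47 ± 0.24 on the log2 scale, edgeR adjusted p = 1.2e-10). Early_S exceeded G1 by 1.44 ± 0.24 (adjusted p = 1.2e-05), and the later steps of 0.59 ± 0.23 and 0.44 ± 0.23 did not pass (adjusted p = 0.090 and 0.55).

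WEE1 was lower in Early_S than in G1 and G2. Its level was 29.5, 35.5 and 34.4 CPM in G1, 21.1, 17.6 and 28 in Early_S, 22.9, 27.3 and 25.4 in Late_S and 42.9, 31.9 and 33.4 in G2. Both S phase groups lay below the G1 and G2 libraries and overlapped with each other, and G1 overlapped with G2. Early_S was lower than G1 by -0.58 ± 0.19 (log2; edgeR adjusted p = 0.024), and G2 exceeded Early_S by 0.70 ± 0.19 (adjusted p = 0.0076). The first call was lost without Early_S replicate 1 or 2 or G1 replicate 2 or 3 (adjusted p 0.0689 to 0.151), and the second without G2 replicate 1 (adjusted p = 0.0697) or Early_S replicate 2 (adjusted p = 0.0643).

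WEE1 was the only member with more than 1 region above 5% of its reads. The region at the gene's end, chr11:9588449-9589984, held 90.1%, and chr11:9586711-9586856, further inside the gene, held 9.04%. Summed over the 12 alkylated libraries, 25.5% of the reads of the inner region carried conversions (95% exact interval 22.3 to 28.8), against 43.2% at the end region (41.9 to 44.5). In G1 these shares were 14.9% and 50.6%, and in Late_S the inner region had the higher one, 41.6% against 31.9%. The intervals of these sums over libraries carry counting error only. They take each read as a separate molecule, which could not be checked, since reads had no molecular identifiers. The shares also depend on how many T positions the reads of a region cover, which was not compared between the regions.

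PKMYT1, the membrane-bound relative of WEE1, did not pass the test across phases (edgeR adjusted p = 0.68). Its reads lay for 99.8% in chr16:2972791-2973384 on the minus strand. Its level was 234.8, 225.8 and 200.1 CPM in G1, 203.5, 229.7 and 181.8 in Early_S, 220.7, 190.6 and 216.8 in Late_S and 197.3, 220.5 and 185.6 in G2. All phases overlapped. The farthest means, G1 and G2, were 0.13 ± 0.09 apart on the log2 scale (adjusted p = 0.37).

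Nascent levels were taken from T>C reads alone and scaled to the bulk of T>C reads (TMM), so a change is relative to the other genes' new RNA in that phase. When T>C reads were instead scaled by all reads, the median over genes shifted by -0.37 (log2) between G1 and Early_S and by a further -0.86 by Late_S, along with the fall in the libraries' T>C share; the part of labelling in this was not tested. Across phases 5 of the 7 genes were called, against 10.4% of all 11474 genes tested. The exceptions were CDC25A (edgeR adjusted p = 0.67) and PKMYT1 (adjusted p = 0.088). In pairs of phases, 3 were called between G1 and Early_S (5.17% of all genes), 1 between Early_S and Late_S (3.53%), 3 between G1 and Late_S (5.36%), 3 between Early_S and G2 (5.85%) and 4 between G1 and G2 (7.29%). Between Late_S and G2 edgeR called 0 (0.0523% of all genes) and DESeq2 0; the unadjusted threshold was passed there by 1, WEE1.

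**Figure D2:**
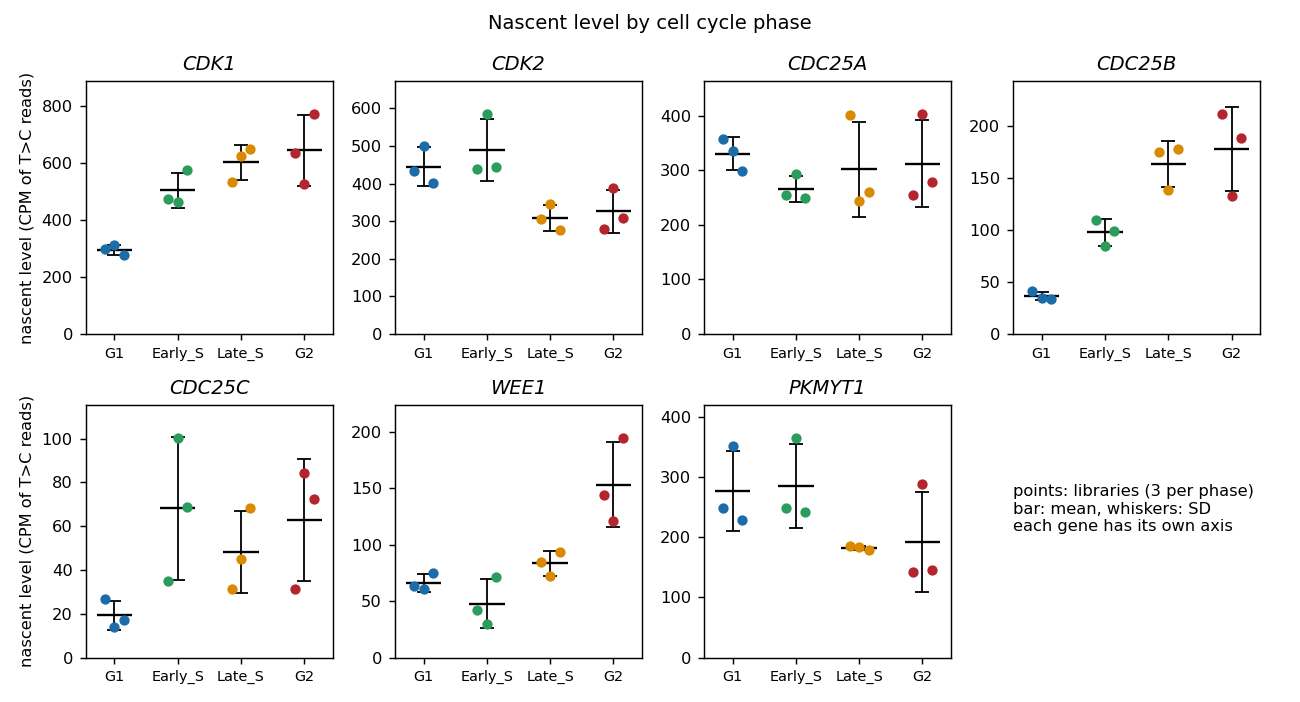
Nascent level of each gene in CPM of T>C reads, with 1 panel and 1 axis per gene, points for the 12 alkylated libraries, a bar for the mean and whiskers for the SD of 3. CDK1 and CDC25B have their lowest 3 libraries in G1 and WEE1 its highest 3 in G2, relative to other new RNA; scaled by all reads, G1 minus G2 is 0.10 for CDK1 and 0.02 for WEE1.

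New CDK1 RNA was 299.3, 311.8 and 276.9 CPM of T>C reads in G1, 473.5, 463.2 and 574.2 in Early_S, 533.7, 622.8 and 649.5 in Late_S and 633.3, 526.3 and 771.8 in G2. The G1 libraries lay below all others, and the later 3 phases overlapped. Early_S exceeded G1 by 0.77 ± 0.14 (log2; edgeR adjusted p = 0.00063), and G1 minus G2 was -1.12 ± 0.14 (adjusted p = 2.3e-06). Scaled by all reads the first was 0.41 (adjusted p = 0.0927) and the second turned to 0.10 (adjusted p = 0.593). Scaled in the same way, T>C reads of CDK1 were at 68.7 ± 2.24 in G1 and 91.4 ± 12.7 CPM in Early_S, then 60.2 ± 6.49 in Late_S and 64.3 ± 14.7 in G2 (SD, n = 3).

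New CDK2 RNA was 432.2, 500.9 and 400.4 CPM in G1, 439.5, 584.9 and 443.4 in Early_S, 305.4, 345.9 and 276.4 in Late_S and 280.0, 388.8 and 308.9 in G2. G1 overlapped with Early_S, and both lay above Late_S and G2. Late_S was lower than Early_S by -0.66 ± 0.16 (log2; edgeR adjusted p = 0.013) and G2 by -0.59 ± 0.16 (adjusted p = 0.022). Without Early_S replicate 2 these calls were lost (adjusted p = 0.131 and 0.171). The first was also lost without Late_S replicate 1 or 3, and the second without G2 replicate 1 or 3 (adjusted p 0.0537 to 0.0997). Late_S was called lower than G1 as well, by -0.52 ± 0.16 (edgeR adjusted p = 0.046). That call was lost without any 1 of the G1 libraries, or without replicate 1 or 3 of Early_S or Late_S (adjusted p 0.0558 to 0.217). It was also lost with the most-read region (adjusted p = 0.0511).

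New CDC25A RNA was 356.9, 335.6 and 298.1 CPM in G1, 255.0, 293.7 and 248.2 in Early_S, 401.9, 242.8 and 259.2 in Late_S and 254.7, 402.9 and 278.2 in G2. G1 lay above Early_S and overlapped with the later phases. No pair of phases was called, and G1 minus G2 was 0.08 ± 0.19 (log2; edgeR adjusted p = 0.87) where the steady-state difference was 0.77. Scaled by all reads, G1 exceeded G2 by 1.32 (adjusted p = 1.8e-06), a change that stood at 1.25 for the median gene.

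New CDC25B RNA was 41.1, 35.0 and 34.0 CPM in G1, 110.0, 84.6 and 98.8 in Early_S, 175.3, 138.2 and 177.9 in Late_S and 211.8, 133.0 and 188.3 in G2. The first 3 phases did not overlap, and Late_S overlapped with G2. The rise into Early_S was 1.41 ± 0.24 (log2; edgeR adjusted p = 0.00027), and G1 minus G2 was -2.28 ± 0.25 (adjusted p = 1.5e-07), where the steady-state value was -0.88. It kept its direction scaled by all reads, with 8.54 ± 1.13 CPM in G1 and 17.7 ± 4.48 in G2 (SD, n = 3). The excess of G2 over Early_S, 0.86 ± 0.24 (adjusted p = 0.028), became -0.01 under that scaling (adjusted p = 0.989). It was also lost without Early_S replicate 1, 2 or 3 or G2 replicate 1 or 3 (adjusted p 0.0510 to 0.124).

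New CDC25C RNA was 26.7, 14.1 and 17.1 CPM in G1, 35.0, 100.5 and 68.9 in Early_S, 31.4, 45.2 and 68.3 in Late_S and 31.4, 84.3 and 72.6 in G2. These rest on 55 to 316 T>C reads per library. G1 lay below all others, which overlapped among themselves. Early_S exceeded G1 by 1.82 ± 0.45 (log2; edgeR adjusted p = 0.013), and G1 minus G2 was -1.70 ± 0.45 (adjusted p = 0.017). The first was lost without G1 replicate 2 or 3 or Early_S replicate 2 (adjusted p 0.0784 to 0.143), and the second without G1 replicate 2 or 3 or G2 replicate 2 or 3 (adjusted p 0.0526 to 0.0932). Scaled by all reads they were 1.43 (adjusted p = 0.0520) and -0.46 (adjusted p = 0.390). The call across phases (adjusted p = 0.031) was lost without G1 or Early_S replicate 2 or 3 (adjusted p 0.0626 to 0.162).

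New WEE1 RNA was 63.0, 60.6 and 75.3 CPM in G1, 42.2, 29.6 and 71.6 in Early_S, 84.9, 71.9 and 93.8 in Late_S and 143.6, 121.1 and 194.5 in G2. The G2 libraries lay above all others, while G1 overlapped with both S phase groups. G2 exceeded Early_S by 1.68 ± 0.31 (log2; edgeR adjusted p = 0.00090), and G1 minus G2 was -1.21 ± 0.30 (adjusted p = 0.011), where the steady-state difference was -0.12. Scaled by all reads the first was 0.81 (adjusted p = 0.0515), and the second turned to 0.02 (adjusted p = 0.971). The second was also lost without G1 replicate 1 or 2 or G2 replicate 3 (adjusted p 0.0548 to 0.0739).

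New PKMYT1 RNA was 248.5, 352.2 and 229.4 CPM in G1, 249.1, 365.3 and 241.8 in Early_S, 184.7, 183.0 and 179.3 in Late_S and 143.1, 288.0 and 146.0 in G2. Late_S lay below G1 and Early_S, and G2 overlapped with all 3 other groups through replicate 2. Without that library the test across phases passed (edgeR adjusted p = 0.00209), with G1 above G2 by 0.94 (adjusted p = 0.00521), against 0.53 ± 0.23 with it (adjusted p = 0.19).

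**Figure D3:**
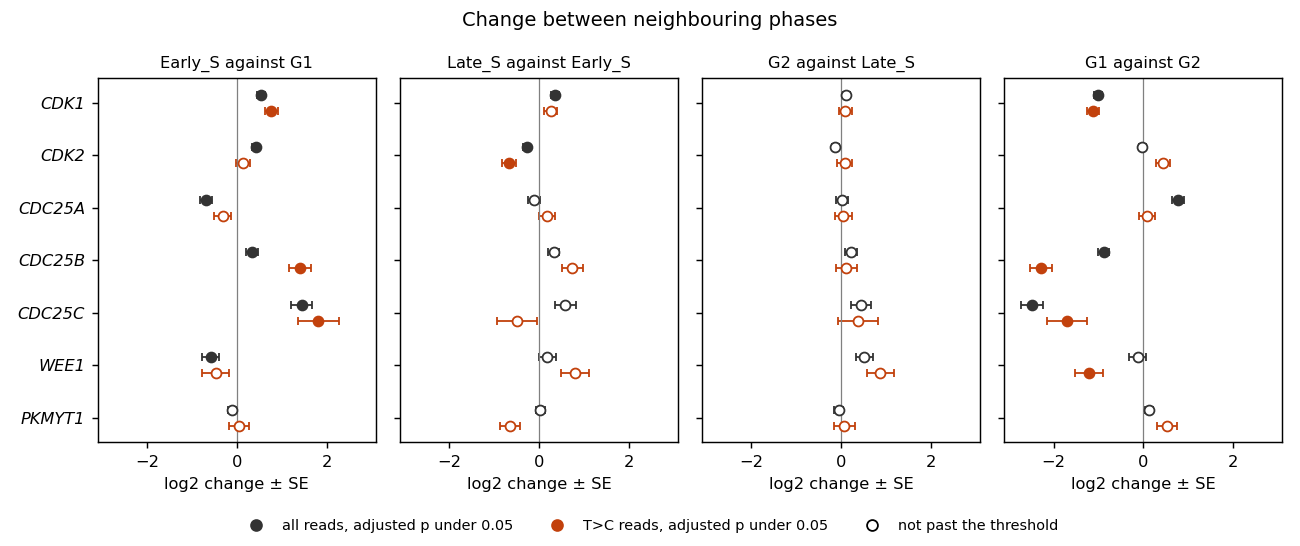
Log2 change with its SE for each gene in the 4 comparisons of neighbouring phases, in all reads (dark) and T>C reads (orange), with filled points for an edgeR adjusted p under 0.05. No filled point lies in the G2 against Late_S panel, and in the G1 against G2 panel WEE1 is filled in T>C reads alone and CDC25A in all reads alone; scaled by all reads, the T>C values of CDK1 and WEE1 in that panel turn to 0.10 and 0.02.

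The labelled share is the percentage of a gene's reads that carry conversions. A share also depends on how many T positions those reads cover, so ranks between genes do not measure labelling alone. In all 7 genes the share was above No_alk, as in 84.4% of the 12909 genes tested. No_alk means ran from 0.181% (CDC25B) to 2.36% ± 2.38 (CDC25C, SD, n = 3). The 95% Wilson interval of a share in 1 library was at most 18.5 percentage points wide, for CDC25C. It covers counting error only and takes each read as a separate molecule. CDC25A carried the highest share of the 7 in each phase, 85.1%, 80.6% and 84.5% in G1, 84.2%, 83.3% and 91.3% in Early_S, 69.8%, 47.1% and 49.8% in Late_S and 44.3%, 75.3% and 51.5% in G2. Its mean was above that of 97.1% of genes in G1 and 95.9% in G2, and Late_S replicate 1 and G2 replicate 2 stood above the other libraries of their groups.

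CDK1 had 60.5%, 55.1% and 57.4% in G1, 52.5%, 52.6% and 56.8% in Early_S, 24.4%, 28.3% and 28.1% in Late_S and 26.0%, 20.4% and 33.0% in G2. Both early groups lay above both later ones, in the direction of the median gene, which had 27.1%, 20.3%, 10.0% and 9.52% in the same order. CDK2 went from 37.4% ± 0.351 in G1 to 24.5% ± 0.831, 10.1% ± 1.57 and 11.5% ± 1.93 in the later phases (SD, n = 3). PKMYT1 stayed near the median gene, with 28.9%, 25.6%, 8.69% and 9.10%.

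CDC25B had the lowest share of the 7 in G1, 15.3%, 11.3% and 10.1%, above that of only 17.5% of genes. It was 22.8%, 16.8% and 21.7% in Early_S, 14.6%, 14.4% and 14.6% in Late_S and 13.0%, 11.1% and 16.2% in G2, where its mean was above that of 64.1% of genes. It thus rose into Early_S, where the median gene's share was lower than in G1. CDC25C went from 44.8% ± 7.47 and 44.5% ± 1.65 in G1 and Early_S to 11.3% ± 3.76 and 10.6% ± 4.23 in Late_S and G2. WEE1 had 51.1%, 36.6% and 53.0% in G1, 38.9%, 29.8% and 47.8% in Early_S, 36.4%, 26.6% and 36.4% in Late_S and 33.2%, 35.0% and 59.5% in G2. The G1 libraries of WEE1 lay above those of Late_S, every other pair of phases overlapped, and its mean share in G2 was above that of 92.7% of genes, against 77.1% in G1.

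**Figure D4:**
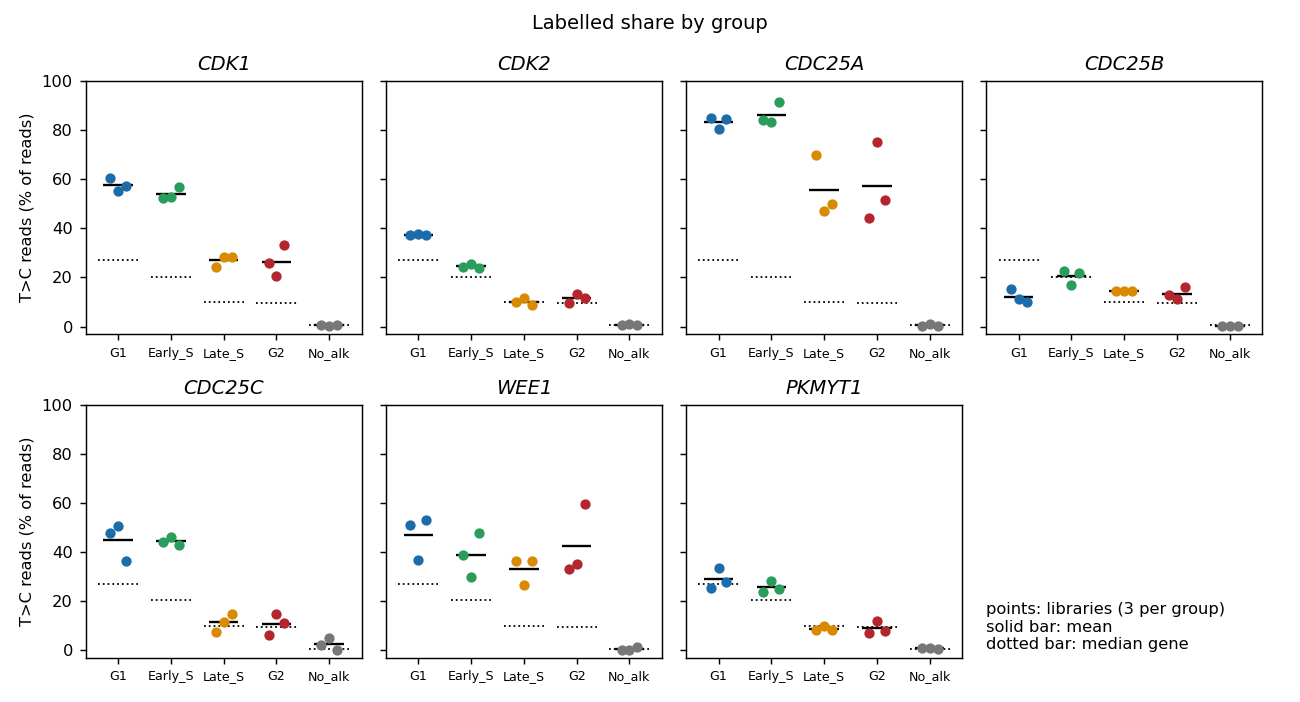
Labelled share, the percentage of reads with conversions, of each gene in the 15 libraries, with points for libraries, a solid bar for the mean of 3 and a dotted bar for the median gene with at least 20 reads. CDC25A lies above the median gene in every phase, CDC25B below it in G1 and above it in Late_S and G2, and PKMYT1 near it throughout.

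The share relative to that of other genes, the ratio of T>C to remaining reads with each kind scaled to its own bulk, differed across phases for 3 of the 7, against 14.7% of all genes. These were CDC25B (edgeR adjusted p = 4.3e-05), CDK2 (adjusted p = 0.0070) and CDC25C (adjusted p = 0.033). On this relative scale CDC25B was lower in G1 than in G2 by -1.73 ± 0.27 (log2; adjusted p = 7.6e-05), and CDK2 fell by 0.87 ± 0.18 from G1 to Late_S (adjusted p = 0.0025). In pairs of phases, 1 of the 7 was called between G1 and Early_S (5.33% of all genes), 1 between Early_S and Late_S (8.12%), 2 between G1 and Late_S (7.57%), 2 between Early_S and G2 (10.6%) and 2 between G1 and G2 (8.73%). Between Late_S and G2 edgeR called 0 (0.0436%), also at the unadjusted threshold. The CDK2 call between G1 and G2 (0.64 ± 0.18, adjusted p = 0.023) was lost without G1 replicate 1, 2 or 3 or G2 replicate 1 or 3 (adjusted p 0.0531 to 0.128). CDC25B lost the call between G1 and G2 when scaled by all reads, at -0.16 (adjusted p = 0.604). Under that scaling it also lost those of Early_S against G1 (0.89, adjusted p = 0.0595) and Late_S against G1 (0.30, adjusted p = 0.336). Its difference of G2 against Early_S, not called with own scaling, turned to -0.73 (adjusted p = 0.0317). CDC25C was lower in G2 than in Early_S by -1.65 ± 0.49 (adjusted p = 0.029), but its calls were each lost without any 1 of several libraries, that across phases in 8 of 12 cases (adjusted p 0.0519 to 0.0934). WEE1 was called in 1 pair, G2 above Early_S by 1.39 ± 0.44 (adjusted p = 0.045). That call was lost without any 1 of 7 libraries (adjusted p up to 0.246), with the most-read region (adjusted p = 0.10) and scaled by all reads (0.21, adjusted p = 0.762).

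Ratios between members within a library do not depend on library scaling. They were tested by an exact permutation test of the between-phase sum of squares over all 369600 assignments of the 12 libraries. The smallest possible p is 6.5e-05, and p was adjusted over the 4 ratios. Each p is for a difference anywhere among the 4 phases, without direction, and no pair of phases was tested. The log2 ratio of CDK1 to CDK2 reads was -1.24, -1.23 and -1.15 in G1, -1.01, -1.38 and -0.87 in Early_S, -0.48, -0.42 and -0.47 in Late_S and -0.28, -0.18 and -0.18 in G2 (exact p = 0.00097, adjusted 0.0019). G1 overlapped with Early_S, and Late_S and G2 each stood apart. The ratio of CDC25B to CDC25A was -0.65, -0.42 and -0.07 in G1, 0.67, 0.51 and 0.75 in Early_S, 1.06, 0.90 and 1.23 in Late_S and 1.51, 1.16 and 1.11 in G2 (exact p = 0.00026, adjusted 0.0010). G1 and Early_S stood apart from all other groups in it, and Late_S overlapped with G2.

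The ratio of CDC25B to CDC25C went the other way, from a mean of 2.86 ± 0.61 in G1 to 1.19 ± 0.45 in G2 (log2, SD, n = 3). Its difference across phases passed the exact permutation test (p = 0.028, adjusted 0.038). This was lost without any 1 of 7 libraries (adjusted p 0.0631 to 0.0979), namely G1 replicates 2 and 3, Late_S replicates 1, 2 and 3, and G2 replicates 2 and 3. In T>C reads G1 minus G2 turned to -0.62, and the test across phases did not pass (exact permutation test, adjusted p = 0.297). The ratio of the inhibitory kinases, WEE1 to PKMYT1, was -3.23 ± 0.51 in Early_S and -2.49 ± 0.29 in G2 (exact p across phases = 0.10, adjusted 0.10). Without Early_S replicate 3 the test across phases passed (difference 1.00, adjusted p = 0.019). In T>C reads the same ratio went from -2.65 ± 0.94 in Early_S to -0.28 ± 0.87 in G2 (exact permutation test across phases, adjusted p = 0.0087).

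**Figure D5:**
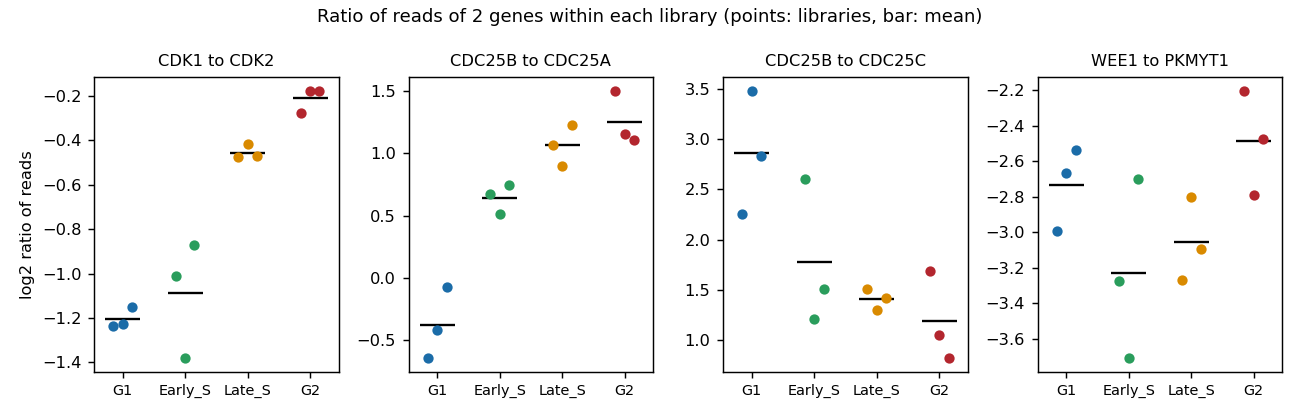
Log2 ratio of the reads of 2 members within each library, by phase, with points for the 12 libraries and a bar for the mean of 3. CDK1 to CDK2 goes from a mean of -1.20 in G1 to -0.21 in G2 and CDC25B to CDC25A from -0.38 to 1.26, while in WEE1 to PKMYT1 Late_S lies just below G2 and every other pair of phases overlaps.

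Among 6629 genes with a mean of at least 20 CPM, the steady-state pattern over the 12 alkylated libraries most like that of CDK1 was of TUBA1C (Pearson r = 0.988), a tubulin, then TPX2 (0.982), a spindle assembly factor, and RACGAP1 (0.982), which acts in cytokinesis. CDK2 was most like IFT22 (0.957), DUT (0.946) and LMO4 (0.943). DUT keeps uracil out of new DNA. CDC25A was most like COL6A1 (0.974), KRTAP2-3 (0.967) and IER2 (0.962), and CDC25B like DBF4 (0.951), HSPA1B (0.941) and UBE2S (0.940), of which DBF4 activates the CDC7 kinase. For CDC25C these were CSNK1G2 (0.967), NFKB1 (0.961) and SPTBN1 (0.957), and for WEE1 SOAT1 (0.912), RAB7A (0.899) and WDFY1 (0.890). PKMYT1 had the least close neighbour, PPP6R1 (0.821). Of the 6629 genes, r was above 0.8 in 6.08% with CDK1, 4.68% with CDC25A, 4.22% with CDC25C and 3.27% with CDC25B. With CDK2 it was so in 2.66%, with WEE1 in 0.588% and with PKMYT1 in 0.0151%. The points share libraries and phases, and r is given as a description.

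The steady-state level in No_alk was set against the mean of the 4 phases, a comparison chosen after its values were seen. The cells of No_alk are not described, and neither their mix of phases nor the missing alkylation was tested as a cause. Of the 7 genes 6 were called (43.5% of all genes), 3 of them higher (22.5% of all genes) and 3 lower (21.0%). WEE1 was at 59.6 ± 3.97 CPM in No_alk, higher than in the phases by 1.05 ± 0.13 (log2; edgeR adjusted p = 6.5e-09), and CDC25A was higher by 0.82 ± 0.09 (adjusted p = 2.3e-10) and CDK1 by 0.41 ± 0.06 (adjusted p = 7.3e-07). PKMYT1 (-0.54 ± 0.08), CDK2 (-0.51 ± 0.06) and CDC25B (-0.44 ± 0.10) were lower, and CDC25C was not called (-0.11 ± 0.19, adjusted p = 0.69). The No_alk means of WEE1 and CDC25A (111.3 CPM) lay above every phase mean, at most 36.4 and 92.6. Those of CDK2 (214.7) and PKMYT1 (144.4) lay below every phase mean, at least 277.0 and 203.2. CDK1 (244.5) was near its G2 mean (242.1), and CDC25B (72.7) and CDC25C (26.9) lay within the range of the phases. The 3 that were higher have the highest mean shares of T>C reads over the 12 alkylated libraries, 70.6% for CDC25A, 41.3% for CDK1 and 40.4% for WEE1. Over 10044 genes, Spearman's rho of that share with the No_alk difference was 0.358. Reads of the phases are the divisor in both quantities, so part of a positive rho can arise by construction. The genes are not independent, and the libraries are shared.

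Around the 7 genes, 8 lists of partners and regulators held 56 genes, of which 55 were measured in all reads. Of these 39 were called across phases (34.1% of all genes), 18 were higher in G2 than in G1 (11.1%) and 12 lower (10.0%). In T>C reads 20 of 54 were called (10.4% of all genes), with 11 higher in G2 and 4 lower (7.29% either way). Among cyclins and CKS subunits, the partners that bind CDK1 and CDK2, 5 of 7 were higher in G2 and 2 lower at steady state (median 1.33 on the log2 scale, against -0.01 for all genes). CCNB1 went from 130.8 ± 17.3 to 344.9 ± 9.38 CPM and CCNA2 from 49.3 ± 2.29 to 146.7 ± 13.4 (SD, n = 3). CKS2 went from 65.1 ± 7.51 to 212.1 ± 9.15 with 11.9% of its reads multimapped, and CKS1B from 223.0 ± 20.02 to 489.4 ± 26.4 with 68.1%.

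Of the 6 genes of the CDK-activating kinase and the kinases upstream of CDC25, 4 were higher in G2 (11.1% of all genes), with a median of 1.26. AURKA, which activates PLK1 with the help of BORA, went from 51.0 ± 10.2 CPM in G1 to 230.3 ± 7.52 in G2, PLK1 from 60.5 ± 9.51 to 241.7 ± 25.4 and BORA from 4.50 ± 1.504 to 15.2 ± 2.88 (SD, n = 3). CDK7, the catalytic subunit of the CDK-activating kinase, was called across phases (edgeR adjusted p = 0.022) and stood 0.54 ± 0.22 higher in G2 (adjusted p = 0.078). The first was lost without G2 replicate 1 or Early_S replicate 2 (adjusted p up to 0.0897) and with the most-read region (adjusted p = 0.141). The Greatwall and B55 phosphatase list had 1 of 8 higher (11.1% of all genes) and 2 lower (10.0%), with a median of -0.18. PPP2CA went from 318.3 ± 13.2 to 253.8 ± 5.06, ENSA from 203.2 ± 26.7 to 161.0 ± 7.92 and PPP2CB from 118.7 ± 5.08 to 166.2 ± 5.12. Without G1 replicate 3 the difference of ENSA was not called (edgeR adjusted p = 0.116). PPP2R2A was lowest in Early_S and level between G1 and G2 (-0.02 ± 0.10, adjusted p = 0.93).

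Among the checkpoint kinases and adaptors that restrain CDC25, 1 of 8 was higher in G2 and 1 lower, near the 11.1% and 10.0% of all genes. CHEK2 went from 4.44 ± 0.779 CPM in G1 to 16.1 ± 5.25 in G2 and MAPKAPK2 from 447.1 ± 42.1 to 368.1 ± 27.2 (SD, n = 3), while ATM (adjusted p = 0.076, edgeR) and TOPBP1 (adjusted p = 0.11) were not called across phases. The difference of MAPKAPK2 was lost without G1 replicate 2 or G2 replicate 2 (adjusted p up to 0.0596). ATM was called by DESeq2 and with the most-read region (adjusted p = 0.0207), and TOPBP1 without G2 replicate 3 (adjusted p = 0.0377). Of the ubiquitin ligase subunits that act on CDC25 and WEE1, 5 of 6 were higher in G2 (11.1% of all genes) and 1 lower (10.0%). FZR1 went from 14.01 ± 3.08 to 29.7 ± 5.72, BTRC from 10.7 ± 2.20 to 22.1 ± 3.39, CDC20 from 265.2 ± 21.2 to 542.5 ± 31.6 with 24.4% of reads multimapped, and SKP1 from 476.2 ± 2.62 to 409.6 ± 32.1 with 24.9%. The fall of SKP1 was not called without G1 replicate 1 or 3 or G2 replicate 2 or 3 (edgeR adjusted p up to 0.169).

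Of the 7 phosphoserine-binding YWHA and SFN proteins, which hold phosphorylated CDC25 in the cytoplasm, 1 was higher in G2 at steady state (11.1% of all genes). Lower in G2 were 3 (10.0%). YWHAE went from 550.9 ± 30.8 CPM in G1 to 429.9 ± 13.5 in G2, YWHAZ (38.7% multimapped) from 1247 ± 26.4 to 884.3 ± 79.3 and YWHAQ (64.2%) from 485.1 ± 47.8 to 379.3 ± 4.25 (SD, n = 3). SFN had its highest mean, 1441 ± 61.5, in Early_S, and its lowest, 971.0 ± 81.1, in G1. Of the 5 CDK inhibitors and related genes 3 were lower in G2 (10.0% of all genes). CDKN1A went from 682.1 ± 37.2 to 149.3 ± 16.3, GADD45A from 227.9 ± 22.1 to 50.5 ± 9.06 and CDKN1C from 10.9 ± 4.60 to 4.26 ± 3.14. The call of CDKN1C was lost without G1 replicate 3 or G2 replicate 1 or 2 (edgeR adjusted p up to 0.249), where G1 minus G2 ran from 0.94 to 2.15 over the libraries left out. CDKN1B was called across phases, with its highest mean, 31.8 ± 6.74, in Early_S, but not without G1 replicate 2 or Early_S replicate 3 (adjusted p up to 0.133). In the DREAM, MuvB and FOXM1 list, which holds transcription regulators of cell cycle genes, 5 of 8 were called across phases (34.1% of all genes). Higher in G2 was 1 (11.1%), E2F4, from 52.6 ± 3.99 to 79.6 ± 12.01. MYBL2, RBBP4 and TFDP1 (27.5% multimapped) had their highest means in Early_S. The call of RBBP4 across phases was lost without G1 or Early_S replicate 1 or 2 (edgeR adjusted p up to 0.157) and with library totals (adjusted p = 0.0599), and that of TFDP1 without G1 replicate 1 (adjusted p = 0.139).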

How the data were processed

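Per the file headers, slamdunk 0.2.4 made the tables over a merged human annotation numbered 90, and the submitters' processing notes name hg38. The counts of reads, T>C reads and multimapped reads per region near a transcript end were used as deposited. The authors' deposited CPM and their fraction of T positions read as converted were not used, and CPM in the text was computed from the counts. The number of conversions that defines a T>C read is not given in the sources used here.

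Each gene's regions were added up under its name. The members and lists were chosen with earlier results of these data known. The fits used edgeR 4.0.16 (quasi-likelihood, R 4.3.3) on the 12 alkylated libraries, with TMM scaling and the filterByExpr rule (at least 10 reads, 15 in total), and p-values were adjusted within each comparison. The labelled share was tested as the interaction of read kind and phase. Named in each list are the up to 4 genes with the smallest p across phases. The scripts were tested on simulated data. The alternatives were DESeq2 1.42.0, other scalings, no filter, the most-read region, reads less multimapped reads, a replicate block and each library left out.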

Additional observations from a re-analysis of the deposited data

How the results depend on the processing

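With T>C reads scaled by all reads, the log2 changes of new CDK1 RNA turned to -0.60 (Late_S against Early_S), 0.10 (G1 against G2), -0.19 (Late_S against G1) and -0.51 (G2 against Early_S). Those of CDC25A turned to -0.68 (Late_S against Early_S) and -0.64 (G2 against Early_S), that of CDC25B to -0.0060 (G2 against Early_S; its labelled share to -0.73), and those of WEE1 to 0.015 (G1 against G2) and -0.89 (Late_S against G1). This scaling keeps the fall in the libraries' T>C share, by construction.

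Labelled shares were called across phases for 6 of the 7 genes scaled by all reads, 7 without a filter, 5 with the replicate block, and 2 to 5 with a library left out, against 3. In pairs of phases the 8 calls became 22 scaled by all reads, 14 without a filter, and 5 to 14 with a library left out. Shares above No_alk were called for 4 of 7 with TMM of each kind, which removes the overall excess, and CDC25C turned to -0.48 and PKMYT1 to -0.014. In T>C reads the G1 minus G2 ratio of CDC25B to CDC25C was -0.62 and the span of WEE1 to PKMYT1 2.37. With a library left out these spans were 1.36 to 1.97 and 0.50 to 1.00 in all reads. Where not stated, the cause was not tested.

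Over all genes, steady-state calls between Late_S and G2 were 20, against 67 without a filter, 108 by DESeq2 and 48 with the block. Nascent calls across phases were 1193, against 6340 scaled by all reads and 1843 by DESeq2. Scaled by all reads, nascent calls against G1 were 965 in Early_S (593 with TMM) and 5905 in Late_S (615), those against Early_S 3944 in Late_S (405) and 4178 in G2 (671), and those between G1 and G2 6132 (837), of which 6070 were higher in G1. Of the same nascent comparisons DESeq2 called 748 genes for Late_S against Early_S, 980 for Late_S against G1, 1053 for G2 against Early_S and 103 for G2 against Late_S, the last with 33 without a filter and 6 in edgeR. Calls on the labelled share scaled by all reads were 7113 across phases (1691), 5072 from Early_S to Late_S (932), 7231 between G1 and G2 (1002), 6658 from G1 to Late_S (869) and 5495 from Early_S to G2 (1211), and without a filter 32 from Late_S to G2 (5). With TMM of each kind 3731 genes differed from No_alk, against 10901. With library totals, steady-state calls from Early_S were 1160 higher and 399 lower into Late_S, against 962 and 585, and 1693 and 884 into G2, against 1428 and 1232.

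The main fits did not pair libraries by replicate number. Deviations from the phase mean correlated between -0.02 and 0.03 in all reads for same-numbered libraries, and between -0.03 and 0.02 for differently numbered ones. In T>C reads they correlated between -0.02 and 0.09 (mean 0.018) for same-numbered libraries. For differently numbered ones they lay between -0.06 and 0.04 (mean -0.009), so a weak pairing in T>C reads is possible. With the replicate block, CDC25C lost its nascent call across phases (edgeR adjusted p = 0.0647) and PKMYT1 gained one (adjusted p = 0.0216). The 6 steady-state calls across phases held with each library left out. The fewest reads in any 1 library were 109 for CDC25C and 312 for WEE1.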
